A study of Homo sapiens with 12 samples.

Results

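Marks of cytosine were followed at 10 genes of the myeloid regulatory circuit in HL-60 cells: CEBPA, CEBPB, CEBPD, CEBPE and CEBPG of the C/EBP family, SPI1 (which encodes PU.1), GFI1, IRF8, IRF4 and CSF3R. A region belonged to a gene when the deposited annotation placed it inside the gene or at most 5000 bases upstream of its start. By this rule 31 of 327931 regions of 5-hydroxymethylcytosine (5hmC) belonged to the 10 genes, among 20430 genes with such a region. In the table of 5-methylcytosine (5mC), 10 of 65535 listed regions belonged to 5 of them (SPI1, GFI1, CSF3R, IRF8 and IRF4), among 12654 genes. The 5 C/EBP genes had no region in that list, which holds only the regions most significant in the authors' own test; 5mC at the C/EBP genes was therefore not analysed here.

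HL-60 is an established cell line from a human promyelocytic leukemia. The undifferentiated group was untreated cells sorted as live and CD11b-, and the differentiated group was cells kept for 7 days in 1.5% DMSO (211 mM) and sorted as live and CD11b+; CD11b is a surface integrin of maturing myeloid cells. All libraries come from this 1 line, so the groups differ in both treatment and sorted fraction. Each state had 3 biological replicates. Sheared DNA from each was split between capture with a 5mC antibody (MeDIP) and with a 5hmC antibody (hMeDIP), which gave 12 libraries; no input library was analysed here.

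Members of the C/EBP family are basic leucine zipper proteins that bind DNA as dimers. C/EBPα starts the granulocyte program, C/EBPε drives its late steps, and C/EBPγ lacks a transactivation domain and can act as a dominant negative partner. PU.1 is an ETS-family factor needed for monocytes and granulocytes, GFI1 is a zinc finger repressor that favours granulocytes, and IRF8 and IRF4 are interferon regulatory factors that bind DNA together with PU.1. CSF3R encodes the receptor for granulocyte colony-stimulating factor and is a known target of C/EBPα and PU.1. In DNA, 5hmC is made from 5mC by TET enzymes. Capture by antibody yields a relative amount of marked DNA rather than a modified share of cytosines, and regions with more CpG or more copies in the genome give more of it. No RNA was measured, so neither the levels of these factors nor the labelled cell state could be checked against expression.

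Because capture depends on CpG density, the promoter sequences of 3 members that differ widely in CpG content are given. They are RefSeq sequences of GRCh38.p14, the 250 bases before the start, 5′ to 3′ on the strand of the gene, with each CpG in capitals; the regions described later are in hg19, and the windows were not placed on that build. CEBPA (chr19:33302535-33302784, minus strand) has 41 CpG, a number reached by 1.73% of the 35116 promoters in the table. IRF4 (chr6:391502-391751, plus strand) has 28, reached by 15.9%. CEBPE (chr14:23119256-23119505, minus strand) has 2, and 22.9% of promoters have 2 or fewer. The median was 11, and 8 of the 10 genes were matched (SPI1 and CEBPD were not).
CEBPA: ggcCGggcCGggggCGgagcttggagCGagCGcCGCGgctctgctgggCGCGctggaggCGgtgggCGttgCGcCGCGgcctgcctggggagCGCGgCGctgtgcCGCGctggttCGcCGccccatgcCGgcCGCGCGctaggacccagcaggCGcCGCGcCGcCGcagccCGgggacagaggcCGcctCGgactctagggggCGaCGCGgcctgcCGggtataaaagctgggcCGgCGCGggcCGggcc
IRF4: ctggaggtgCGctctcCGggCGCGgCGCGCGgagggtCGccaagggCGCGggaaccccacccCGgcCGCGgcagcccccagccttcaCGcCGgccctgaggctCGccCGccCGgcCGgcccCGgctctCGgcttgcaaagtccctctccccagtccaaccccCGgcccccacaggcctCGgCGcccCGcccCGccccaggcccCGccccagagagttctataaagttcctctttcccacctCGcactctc
CEBPE: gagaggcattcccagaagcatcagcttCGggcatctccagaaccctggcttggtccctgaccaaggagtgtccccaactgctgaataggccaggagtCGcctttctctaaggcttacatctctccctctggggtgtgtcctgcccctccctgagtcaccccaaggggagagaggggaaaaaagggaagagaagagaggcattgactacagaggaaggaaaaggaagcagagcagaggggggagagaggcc

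Gene starts were derived from the deposited promoter distances above 0. No 5hmC region of the 10 genes covered a start placed in this way, and 4 of the 31 came within 1000 bases of one. The SPI1 region at 47399001 and the CSF3R region at 36947201 had a deposited promoter distance of 0. The deposited annotation thus places both at the promoter. The 5hmC region nearest its start lay 2771 bases away in CEBPA, 2781 in CEBPE, 4540 in IRF4, 2568 in GFI1 and 327 in SPI1. In all, 18 regions lay in gene bodies and 13 upstream, and 3 lay in a CpG island. Their widths ran from 400 to 4200 bases. SPI1 held 10 of them and CSF3R 9, CEBPA, CEBPB, CEBPG and IRF4 held 2 each, and CEBPD, CEBPE, GFI1 and IRF8 held 1 each. Whether a region lay in an exon or an intron was not determined, since no hg19 annotation was used.

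Regions of 5hmC held 13010267 to 33693880 counts per library, and the listed 5mC regions 6076100 to 9670011. Values are CPM, counts relative to the library total, scaled by the trimmed mean of M values (TMM). Changes are log2 fold changes of differentiated over undifferentiated, with standard errors (SE). Each adjusted p comes from edgeR's quasi-likelihood F test with Benjamini-Hochberg adjustment, and 0.05 was the threshold. P-values measure the spread between 3 biological replicates of the line.

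Summed per gene and divided by the length of their regions, undifferentiated 5hmC levels ran from 6.41 ± 0.462 CPM per kb in SPI1 to 1.47 ± 0.109 in CEBPB (SD, n = 3). IRF4 followed SPI1 at 6.06 ± 1.01, CEBPD had 4.27 ± 0.561 and GFI1 3.56 ± 0.256. CEBPG (2.14 ± 0.493), CSF3R (2.11 ± 0.101), IRF8 (1.91 ± 0.259), CEBPA (1.77 ± 0.0836) and CEBPE (1.60 ± 0.132) came next. Neighbours in this order lay within 1 SD of each other, apart from the steps from IRF4 to CEBPD, from CEBPD to GFI1, from GFI1 to CEBPG and from CEBPA to CEBPE. In differentiated cells SPI1 (7.43 ± 1.36) and IRF4 (7.22 ± 0.828 CPM per kb) were again the highest, CEBPD had 3.06 ± 0.555, and CEBPA, CEBPB, CEBPE, CEBPG, CSF3R, IRF8 and GFI1 lay between 1.65 and 2.10.

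At gene level 2 of the 10 genes fell in 5hmC (GFI1 and CEBPD), none rose, and 8 did not pass, where 51.6% of all 20430 genes passed (25.7% higher, 25.8% lower). The count of rises was 0 in edgeR, also at an unadjusted p under 0.05, and 0 in DESeq2, by which 3856 of the 20430 genes rose. In 2 of the 10 genes all libraries of one state lay on one side of the other state, beside 57.1% of all genes. Their median log2 change was 0.066, beside 0.0064 over all genes. By region, 4 of 31 were higher, 5 lower and 22 did not pass, where 50.3% of all regions passed (27.0% higher, 23.3% lower). In 13 of the 31 regions the libraries separated fully by state, beside 52.2% of all regions. The median size of change, sign aside, was 0.310 in the 31 regions and 0.505 over all regions. Thus the share of called regions at these genes lay below the share over the genome; this difference was not tested. The authors' deposited table calls 10 of the 31 at an adjusted p of 0.05, the 9 called here among them. The added one is the SPI1 region at 47400601, whose adjusted p in the authors' deposited table is 0.0296. The share of all regions called in the authors' table is not given here, so its 10 calls have no background beside them.

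**Figure D1:**
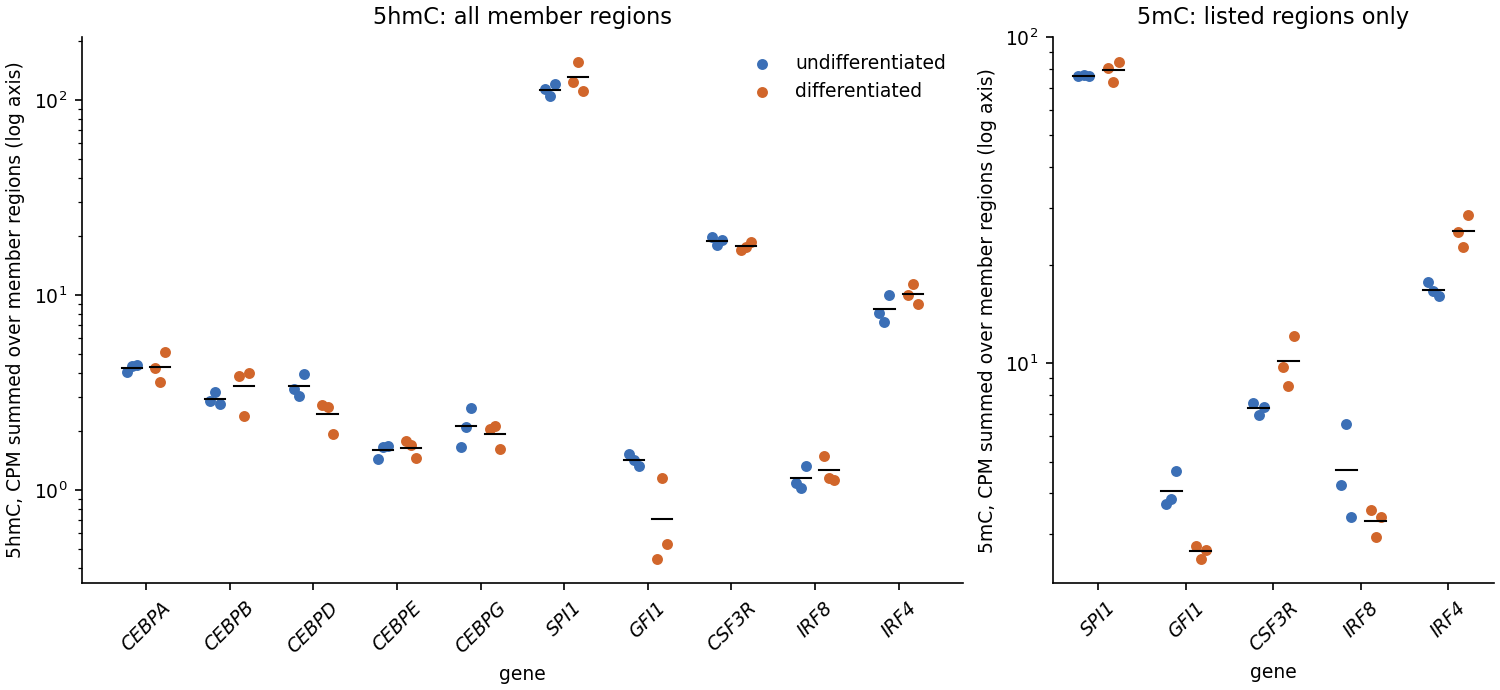
CPM of 5hmC (left) and 5mC (right) summed over the regions of each gene, on log axes, for the 3 undifferentiated and 3 differentiated libraries (points) with group means (black bars). SPI1 lies highest in both marks, GFI1 and CEBPD differ between the states in 5hmC, and the 3 differentiated libraries of IRF4 lie above the 3 undifferentiated ones in 5mC.

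Of the C/EBP genes, CEBPD was the one that passed at gene level in 5hmC. CEBPD encodes C/EBPδ, an inducible family member of granulocytes and macrophages. Its region (chromosome 8, 48653201 to 48654000, 2475 to 3274 bases upstream of the start) held 3.28, 2.99 and 3.92 CPM in undifferentiated and 2.76, 2.69 and 1.94 CPM in differentiated libraries. All differentiated libraries lay below all undifferentiated ones, with the lowest in differentiated replicate 3. The region fell by 0.51 in log2 units (SE 0.178, adjusted p = 0.0153), and the gene, which has this region alone, by 0.54 (SE 0.177, adjusted p = 0.0215). Without differentiated replicate 3 the change of the region was -0.29 (adjusted p = 0.254) and that of the gene -0.32 (adjusted p = 0.196). DESeq2 gave the region -0.48 and the gene -0.51, with adjusted p = 0.130 and 0.0653. Without undifferentiated replicate 3 both calls were also lost (adjusted p = 0.0682 and 0.0672), and without undifferentiated replicate 1 that of the gene (adjusted p = 0.0613).

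CEBPA had 2 upstream regions, and neither passed. The nearer one (chromosome 19, 33796201 to 33797200) held 2.31, 2.31 and 2.05 CPM in undifferentiated and 2.48, 2.06 and 3.01 in differentiated libraries, a log2 change of 0.23 (SE 0.184, adjusted p = 0.273). The farther one (33797801 to 33799200) had 1.99 ± 0.340 and 1.81 ± 0.288 CPM (adjusted p = 0.914). The states overlapped in both regions. CEBPE, the late granulocyte factor, had 1 region (chromosome 14, 23591601 to 23592600) with 1.59 ± 0.133 CPM before and 1.66 ± 0.170 after differentiation (adjusted p = 0.837).

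CEBPB encodes C/EBPβ, the member linked to emergency granulopoiesis and to macrophages. Its region in a CpG island 1880 to 2879 bases downstream of the start (chromosome 20, 48809001 to 48810000) held 1.46, 1.54 and 1.15 CPM in undifferentiated and 2.09, 1.34 and 2.22 in differentiated libraries. Differentiated replicate 2 lay inside the undifferentiated range and the other two above it. The log2 change was 0.50 (SE 0.22, adjusted p = 0.0515), which did not pass. The upstream region (48801401 to 48802400) had 1.53 ± 0.132 and 1.55 ± 0.416 CPM (adjusted p = 0.642). Without differentiated replicate 2, CEBPB had a log2 change of 0.42 at gene level (adjusted p = 0.022), the 1 of 13 alternatives in which it passed; without differentiated replicate 3 it was 0.15 (adjusted p = 0.572).

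CEBPG had an upstream region (chromosome 19, 33862001 to 33862400) with 1.18 ± 0.281 and 0.858 ± 0.300 CPM, a log2 change of -0.57 (SE 0.292, adjusted p = 0.0913). Its region 2025 to 2624 bases downstream of the start (33866601 to 33867200) had 0.944 ± 0.280 and 1.10 ± 0.131 CPM (adjusted p = 0.312). The states overlapped in both. Counts were 11 to 38 per library.

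SPI1 carried the most 5hmC of the 10 genes, most of it at the far end of the gene. A 4200-base region (chromosome 11, 47377201 to 47381400) that overlaps a CpG island 18727 to 22926 bases downstream of the start held 61.9, 55.6 and 70.0 CPM in undifferentiated and 69.9, 90.8 and 59.0 CPM in differentiated libraries. The states overlapped, with differentiated replicate 2 above all others. The log2 change was 0.22 (SE 0.187, adjusted p = 0.300); it was 0.042 without differentiated replicate 2 and 0.36 without differentiated replicate 3. Of all 5hmC regions, 0.0689% had a mean CPM, not divided by width, at or above that of this one. It also counted for MYBPC3, a gene whose start lies within 5000 bases of it. Within each library it held 55.7 ± 1.99% of the 5hmC counts of SPI1 in undifferentiated and 55.4 ± 2.25% in differentiated cells, a share that no scaling between libraries can move.

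Of the 10 SPI1 regions, 2 rose and 1 fell. The region 1727 to 2726 bases downstream of the start (47397401 to 47398400) held 6.46, 5.79 and 6.64 CPM in undifferentiated and 8.62, 8.95 and 8.30 in differentiated libraries. Values of the states lay apart, and it rose by 0.45 (SE 0.144, adjusted p = 0.00952). It passed in 9 of 12 alternatives. Without undifferentiated replicate 2 its adjusted p was 0.0548 at a log2 change of 0.39. The call was also lost with library totals alone as the scaling (0.23, adjusted p = 0.148) and with TMM on the strongest regions (0.23, adjusted p = 0.143). Its share of the SPI1 counts was 5.62 ± 0.118% in undifferentiated and 6.67 ± 0.909% in differentiated cells, and these shares overlapped. The other rise, named after its values were seen, lay 4674 to 5873 bases upstream (47404801 to 47406000), from 4.38 ± 0.811 to 5.88 ± 0.449 CPM (log2 change 0.41, SE 0.151, adjusted p = 0.0203). It passed in 6 of 12 alternatives, where its changes ran from 0.20 to 0.52. Its share of the SPI1 counts was 3.88 ± 0.410% in undifferentiated and 4.52 ± 0.480% in differentiated cells. The shares overlapped between the states, while its CPM values did not.

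The SPI1 region that fell was a 400-base stretch inside the gene, 15727 to 16126 bases downstream of the start (47384001 to 47384400). It held 1.22, 1.45 and 1.63 CPM in undifferentiated and 0.845, 0.806 and 0.501 CPM in differentiated libraries. Every differentiated library lay below every undifferentiated one. Its log2 change was -1.06 (SE 0.285, adjusted p = 0.00247). Counts were 27 to 45 in undifferentiated and 9 to 16 in differentiated libraries. Of all 5hmC regions, 84.9% had a mean CPM at or above that of this region. Its share of the 5hmC counts of SPI1 went from 1.28 ± 0.173% to 0.545 ± 0.116%, again with no overlap. Of 12 alternatives it missed the threshold without differentiated replicate 3 (-0.74, adjusted p = 0.0809) and passed in the other 11.

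The 5hmC region nearest the SPI1 start, 327 to 1126 bases downstream in a CpG island (47399001 to 47399800), was low, at 1.32 ± 0.163 and 1.54 ± 0.304 CPM (adjusted p = 0.468). On the other side of the start, 474 to 2073 bases upstream (47400601 to 47402200), lay one of the stronger 5hmC regions by CPM, with 18.2 ± 0.852 and 23.0 ± 5.89 CPM (log2 change 0.32, adjusted p = 0.0944). Of all 5hmC regions, 0.716% had a mean CPM at or above that of this one. CPM was not divided by width in such ranks, and the median width of all 5hmC regions was 600 bases. Summed over the gene, SPI1 had 113, 104 and 121 CPM in undifferentiated and 124, 157 and 111 CPM in differentiated libraries. The states overlapped, and the log2 change of 0.20 (SE 0.0977, adjusted p = 0.0944) did not pass. Without differentiated replicate 3 it was 0.31 (adjusted p = 0.0084), without differentiated replicate 2 it was 0.056 (adjusted p = 0.382), and with library totals alone it was -0.012.

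**Figure D2:**
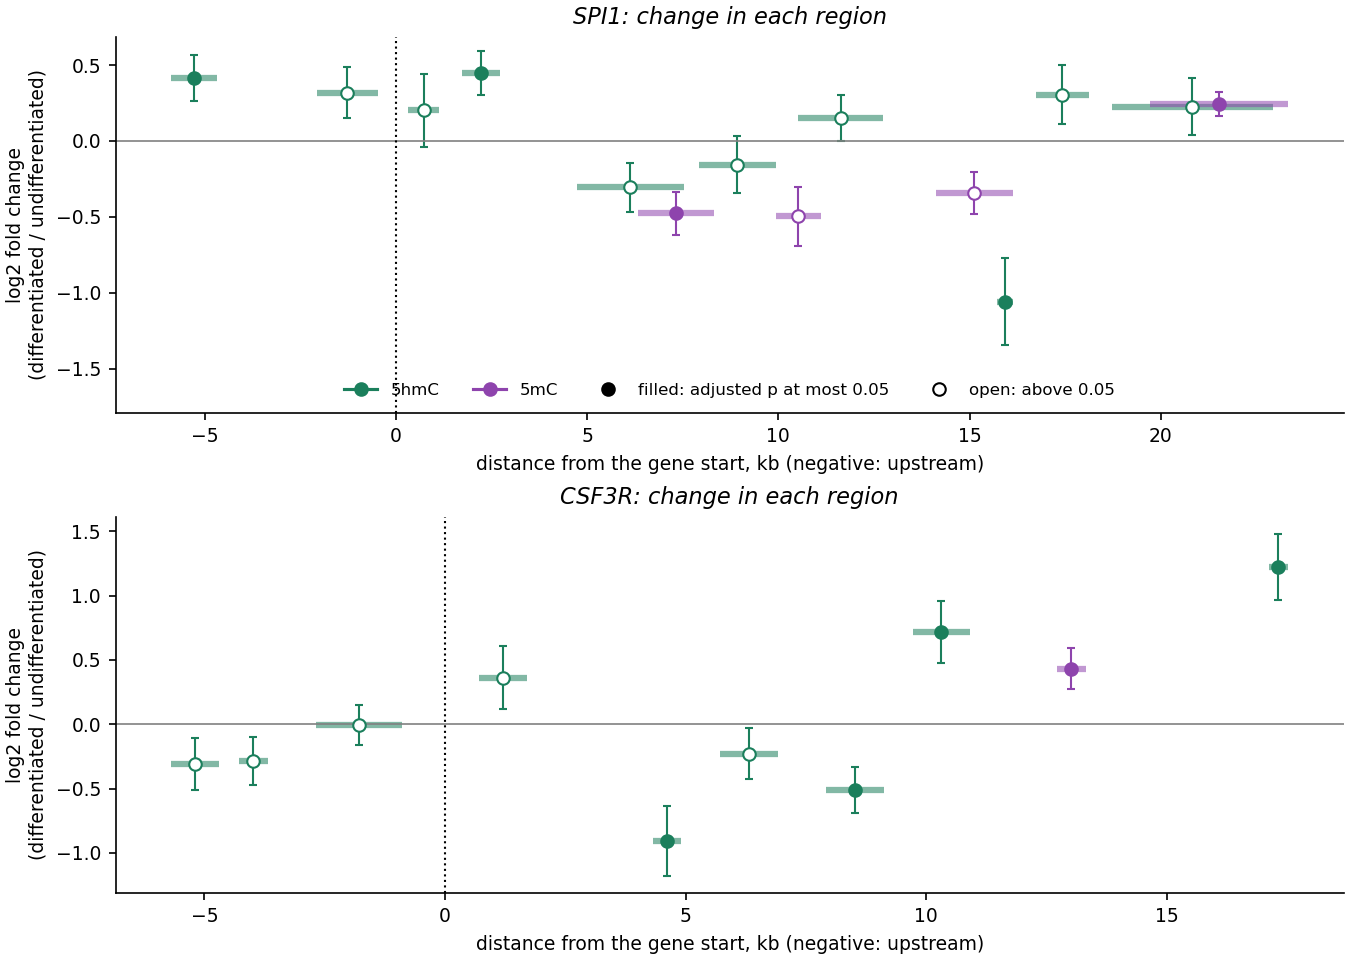
Log2 fold change (differentiated over undifferentiated) of each region of SPI1 (top) and CSF3R (bottom) against its distance from the gene start in kb, for 5hmC (green) and 5mC (purple). Bars along the axis show region widths, error bars the SE, and filled points passed an adjusted p of 0.05; both genes hold 5hmC regions that rose and regions that fell.

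In 5mC SPI1 had 4 listed regions, with a rise at the far end of the gene and negative changes in the others. The region that overlaps the CpG island at the far end (47376801 to 47380400) held 43.6, 47.6 and 46.9 CPM in undifferentiated and 52.9, 51.7 and 58.4 CPM in differentiated libraries. Every differentiated library lay above the undifferentiated ones, and it rose by 0.24 (SE 0.0765, adjusted p = 0.0213). With library totals alone this change was -0.013, and with TMM factors from the strongest regions (mean CPM above the 0.75 quantile) -0.034. The call was also lost without undifferentiated replicate 1 (adjusted p = 0.0924) and without differentiated replicate 3 (adjusted p = 0.206).

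The region 6327 to 8326 bases downstream of the start (47391801 to 47393800) held 15.0, 10.5 and 11.7 CPM in undifferentiated and 9.58, 7.97 and 9.15 CPM in differentiated libraries, and fell by 0.48 (SE 0.143, adjusted p = 0.0156). Undifferentiated replicate 1 stood highest, and the call was lost without it (-0.31, adjusted p = 0.327) and without differentiated replicate 2 (-0.41, adjusted p = 0.0791). The other two, at 47389001 and 47384001, had log2 changes of -0.50 (adjusted p = 0.0672) and -0.34 (adjusted p = 0.0786). Within each library the far region took 59.3 ± 2.70% of the listed 5mC counts of SPI1 in undifferentiated and 69.9 ± 2.86% in differentiated cells, with no overlap. The other shares went from 15.9 to 11.4%, from 8.47 to 5.97% and from 16.3 to 12.6%. All these regions are listed because they differed between the same libraries, and SPI1 5mC outside the list is not counted. The shift in shares is therefore not independent evidence of a change. Over the gene, listed 5mC was 76.3 ± 0.380 and 79.2 ± 5.81 CPM, a log2 change of 0.060 (adjusted p = 0.297) that became -0.25 (adjusted p = 3.34e-05) with library totals alone.

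GFI1 had the largest 5hmC change of the 10 genes. Its region (chromosome 1, 92955001 to 92955400, 2568 to 2967 bases upstream of the start) held 1.52, 1.40 and 1.33 CPM in undifferentiated and 0.451, 1.16 and 0.532 CPM in differentiated libraries. All 3 differentiated libraries lay below the undifferentiated ones, and differentiated replicate 2 came close to them. The region fell by 1.18 (SE 0.29, adjusted p = 0.00105), and the gene by 1.20 (SE 0.284, adjusted p = 0.00344). Counts were 8 to 17 in differentiated and 22 to 56 in undifferentiated libraries. Of all 5hmC regions, 85.6% had a mean CPM at or above that of this region. The fall passed in all 12 alternatives run for the region, where it ran from -1.51 to -0.96.

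A 5mC region covers the same GFI1 stretch and runs farther upstream (92955001 to 92955600). It held 3.77, 3.91 and 4.76 CPM in undifferentiated and 2.70, 2.48 and 2.63 CPM in differentiated libraries. All differentiated values were below all undifferentiated ones. The log2 change was -0.66 (SE 0.248), and adjusted over the 328588 tests that the deposited p-values imply it did not pass (adjusted p = 0.055). As a gene, with p-values adjusted over the 12654 genes tested, GFI1 fell by 0.61 (SE 0.244, adjusted p = 0.0192). This call was lost in DESeq2 (adjusted p = 0.0809) and without undifferentiated replicate 3 (adjusted p = 0.0882). That gene test carries no correction for how the 5mC list was selected.

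IRF8 had a single 5hmC region (chromosome 16, 85948001 to 85948600, 15226 to 15825 bases downstream of the start) with 1.14 ± 0.165 and 1.27 ± 0.218 CPM (adjusted p = 0.595). Its listed 5mC region lay farther along the gene (85953601 to 85954400) and held 4.31, 6.61 and 3.46 CPM in undifferentiated and 3.49, 2.89 and 3.32 CPM in differentiated libraries. Undifferentiated replicate 2 stood above the rest, and the states overlapped. The region did not pass (log2 change -0.55, SE 0.232, adjusted p = 0.0985). The gene fell by 0.50 (SE 0.233, adjusted p = 0.0432), and this call held in 9 of 13 alternatives. It was lost without undifferentiated replicate 2 (-0.21, adjusted p = 0.470), without differentiated replicate 2 or 3 (adjusted p = 0.118 and 0.0653) and in DESeq2 (adjusted p = 0.129).

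IRF4, a factor of lymphoid and dendritic cells that also acts in myeloid cells, had the lowest adjusted p in 5mC of the 5 genes with listed regions. Over its 3 regions it had 17.7, 16.7 and 16.1 CPM in undifferentiated and 25.2, 22.7 and 28.5 CPM in differentiated libraries. The states did not overlap, and the gene rose by 0.60 (SE 0.102, adjusted p = 4.44e-07). It passed in all 13 alternatives, with changes from 0.29 (library totals alone) to 0.67. Its 3 regions were listed because they already differed between the same libraries in the authors' test, so these passes are not independent evidence. Like that of GFI1, the 5mC gene tests of IRF4 and the other listed genes carry no correction for this selection.

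The upstream IRF4 region (chromosome 6, 386601 to 387400) held 5.93, 4.51 and 6.49 CPM in undifferentiated and 10.5, 8.94 and 7.66 CPM in differentiated libraries, and rose by 0.67 (SE 0.173, adjusted p = 0.00457). Every differentiated library was above every undifferentiated one. It passed in 8 of 13 alternatives and missed the threshold with library totals alone (0.42, adjusted p = 0.158), with TMM on the strongest regions (0.40, adjusted p = 0.211), in DESeq2 (adjusted p = 0.131), without undifferentiated replicate 2 (adjusted p = 0.0525) and without differentiated replicate 1 (adjusted p = 0.0605). A region inside the gene (402401 to 403200) rose from 4.72 ± 0.537 to 6.83 ± 2.40 CPM (log2 change 0.55, SE 0.198, adjusted p = 0.0461). Differentiated replicate 3 was far above the other libraries there, and without it the change was 0.21. This region passed in 5 of 13 alternatives. In both regions the passes include adjustment over listed regions alone, which the cut of the list made easy to pass. The third (404001 to 405200) had 6.80 ± 0.895 and 9.13 ± 1.36 CPM (log2 change 0.43, adjusted p = 0.0579).

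In 5hmC the upstream IRF4 region (386601 to 387200) held 2.33, 1.83 and 2.29 CPM in undifferentiated and 2.82, 3.31 and 2.69 CPM in differentiated libraries. The states did not overlap, but the log2 change of 0.40 (SE 0.182, adjusted p = 0.0600) did not pass. The region inside the gene (396401 to 397200) had 6.28 ± 1.32 and 7.23 ± 0.851 CPM (adjusted p = 0.254). At gene level IRF4 had 8.48 ± 1.42 and 10.1 ± 1.16 CPM of 5hmC (log2 change 0.23, SE 0.118, adjusted p = 0.109), and it passed in 1 of 13 alternatives, without undifferentiated replicate 3 (0.34, adjusted p = 0.0288).

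CSF3R did not pass in sum, while 4 of its 9 5hmC regions passed, 2 in each direction. Its 5hmC per gene was 19.0 ± 0.910 CPM in undifferentiated and 17.8 ± 0.852 CPM in differentiated cells, a log2 change of -0.088 (SE 0.0671, adjusted p = 0.282) that passed as a fall of 0.28 (adjusted p = 0.0137) with library totals alone. The largest rise lay far from the start, 17115 to 17514 bases downstream of it (chromosome 1, 36931401 to 36931800). This region also counted for MRPS15, and whether all of it lies inside CSF3R was not determined. It held 0.787, 0.820 and 0.604 CPM in undifferentiated and 1.63, 2.06 and 1.72 CPM in differentiated libraries. The states were well apart, and it rose by 1.22 (SE 0.257, adjusted p = 0.000196). Counts were 10 to 29 in undifferentiated and 23 to 55 in differentiated libraries. Of all 5hmC regions, 70.1% had a mean CPM at or above that of this region. Its share of the CSF3R counts went from 3.92 ± 0.730% to 10.1 ± 1.38%.

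The largest fall in CSF3R lay nearer the start, 4315 to 4914 bases downstream (36944001 to 36944600). It held 1.30, 1.54 and 1.63 CPM in undifferentiated and 0.902, 0.627 and 0.751 CPM in differentiated libraries, with no overlap. It fell by 0.91 (SE 0.27, adjusted p = 0.00526), and its share went from 7.95 ± 1.17% to 4.25 ± 0.859%. Counts were 27 to 48 in undifferentiated and 7 to 24 in differentiated libraries, and 80.9% of all 5hmC regions had a mean CPM at or above it. This fall and the rise at 36931401 passed in all 12 alternatives run for each. The changes ran from -1.12 to -0.84 for the fall and from 1.02 to 1.28 for the rise.

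The other two called regions of CSF3R, named after their values were seen, lie next to each other. The one at 36938001 to 36939200 rose from 1.03 ± 0.164 to 1.79 ± 0.249 CPM (log2 change 0.72, SE 0.242, adjusted p = 0.0127). The one at 36939801 to 36941000 fell from 3.10 ± 0.177 to 2.07 ± 0.388 CPM (log2 change -0.51, SE 0.179, adjusted p = 0.0158). Their shares of the CSF3R counts went from 5.48 to 10.0% and from 16.4 to 11.5%. The rise passed in 8 and the fall in 9 of 12 alternatives, all in the same direction.

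The CSF3R region nearest the start (36947201 to 36948200, 715 to 1714 bases downstream) had 1.14 ± 0.197 and 1.45 ± 0.132 CPM (adjusted p = 0.198). By the mean over all 6 libraries, the CSF3R region with the most 5hmC per kb lay 3686 to 4285 bases upstream (36952601 to 36953200), at 2.56 ± 0.114 and 2.04 ± 0.294 CPM (adjusted p = 0.184). In differentiated cells alone the region at 36931401 had more, 4.51 against 3.40 CPM per kb. In 5mC the 1 listed region (36935601 to 36936200) lay between the rising 5hmC regions and overlapped none. It held 7.68, 7.06 and 7.50 CPM in undifferentiated and 9.58, 8.39 and 11.9 CPM in differentiated libraries. It rose by 0.43 (SE 0.157, adjusted p = 0.0468), and the gene by 0.49 (SE 0.157, adjusted p = 0.00434). The region passed in 4 of 13 alternatives, 1 of them the adjustment over listed regions alone. The gene passed in 11 of 13, its change being 0.33 without differentiated replicate 3 (adjusted p = 0.0812) and 0.18 with library totals alone (adjusted p = 0.306).

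**Figure D3:**
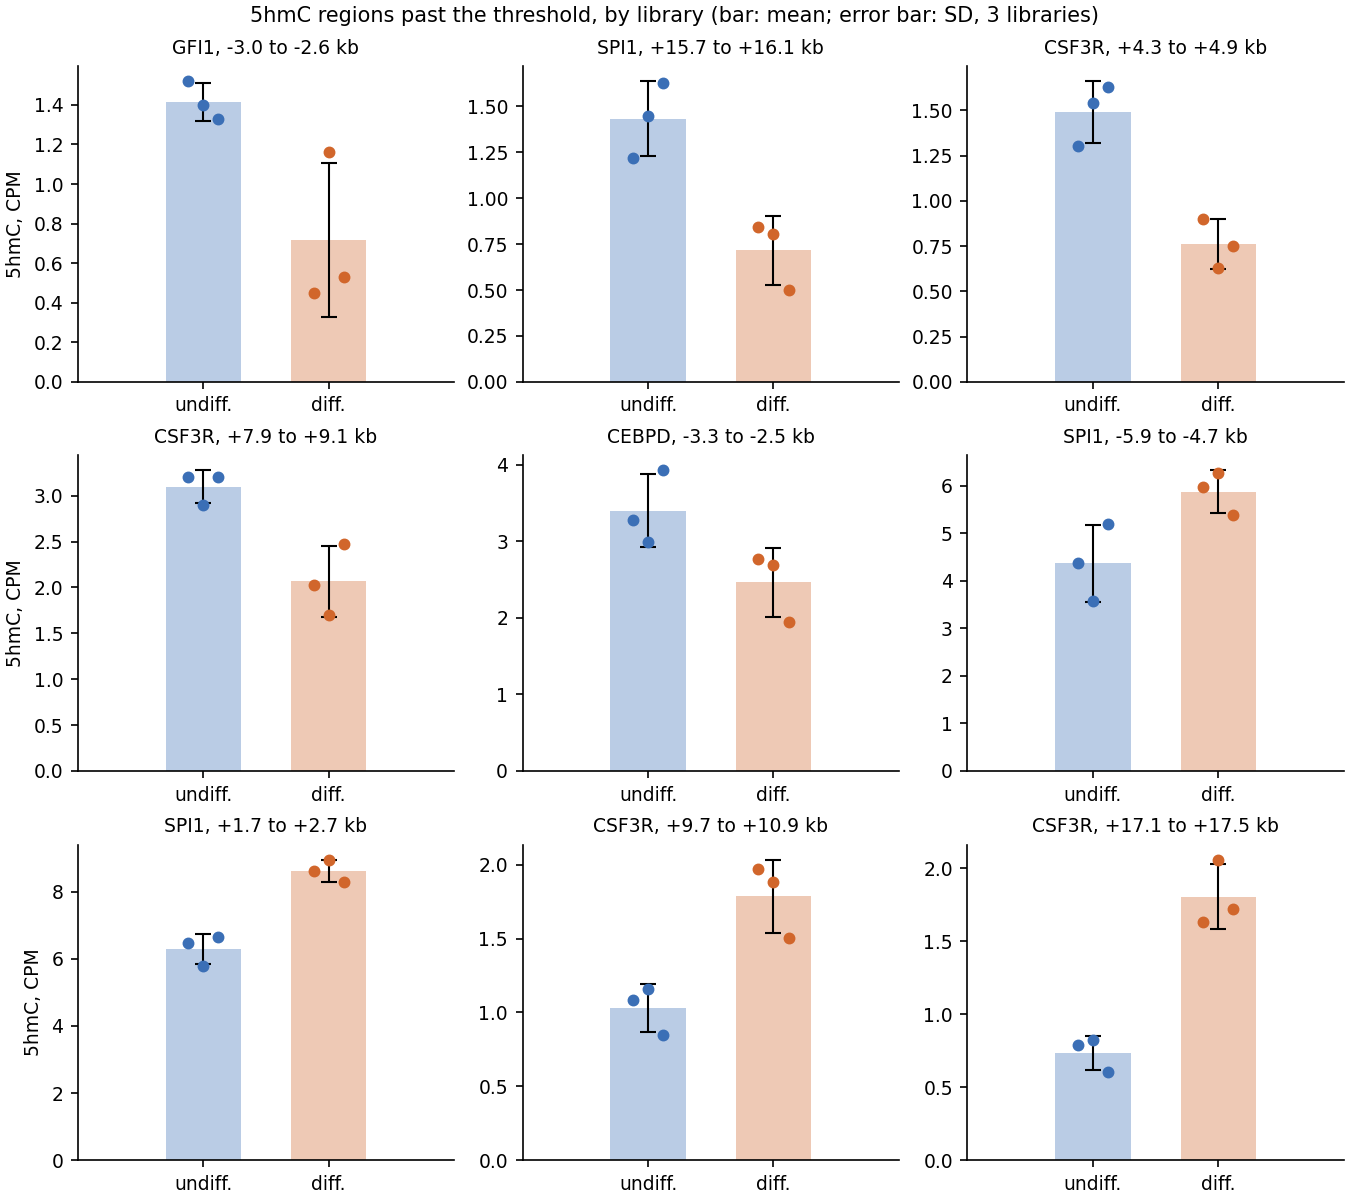
CPM of the 9 5hmC regions that passed an adjusted p of 0.05, in undifferentiated (blue) and differentiated (orange) cells; bars are means, error bars SDs and points the 3 libraries of each state, with distances from the gene start in kb above each panel. In all 9 panels the points of one state lie above those of the other.

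Across the listed 5mC regions of these genes 4 rose, 1 fell and 5 did not pass, where 72.7% of the listed regions passed (35.7% higher, 37.1% lower). In DESeq2 the counts were 0 and 0, where 3408 of the 65535 listed regions passed (1954 higher, 1454 lower). Libraries separated fully by state in 9 of the 10 regions, beside 86.1% of the list. At gene level 2 of the 5 rose (CSF3R and IRF4), 2 fell (GFI1 and IRF8) and SPI1 did not pass, where 84.2% of the genes tested passed (41.0% higher, 43.2% lower). Full separation held for 3 of the 5, beside 77.8% of genes tested. The authors' list was chosen for a difference between the same libraries, so the calls are not independent evidence of a change. The median log2 change of the 10 regions was -0.049, beside 0.22 over the list.

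Where the marks met, 6 of the 10 5mC regions overlapped 7 of the 31 5hmC regions, making 7 pairs. Both changes had the same sign in 6 pairs. In GFI1 they were -0.66 (5mC) and -1.18 (5hmC), in the upstream IRF4 pair 0.67 and 0.40, and at the far end of SPI1 0.24 and 0.22. The SPI1 pair at 47384001 had -0.34 and -1.06. The pair of opposite sign was also in SPI1 (47389001, -0.50 in 5mC and 0.15 in 5hmC), where the 5hmC change became -0.076 with library totals alone and -0.063 with TMM on the strongest regions. No pair passed in both marks. Both libraries of a pair came from the same DNA preparations, so the pairs are not independent measurements.

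Genes that work with these factors were taken as 5 lists and tested at gene level, with the same background shares. Of the transcription factors and regulators that meet the C/EBP, PU.1 and GFI1 network, 24 of 28 were tested in 5hmC: 9 rose, 5 fell and the median log2 change was 0.21. TRIB2, a pseudokinase that targets C/EBPα for degradation, went from 1.26 ± 0.207 to 2.00 ± 0.305 CPM (log2 change 0.56, SE 0.208, adjusted p = 0.0365). ATF4, a bZIP factor of the stress response that pairs with C/EBP proteins, fell from 1.28 ± 0.409 to 0.635 ± 0.145 CPM (log2 change -1.12, SE 0.295, adjusted p = 0.0066). In 5mC 16 of the list were tested: 8 rose, 7 fell. TRIB2 rose there too (log2 change 0.83, SE 0.163, adjusted p = 1.01e-05), and KLF4, a monocyte factor, fell (-0.72, SE 0.225, adjusted p = 0.0035).

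Of 7 corepressors and partners of GFI1, 6 were tested in 5hmC, where 1 rose and 4 fell. HDAC2 had 1.89 ± 0.178 and 2.74 ± 0.411 CPM (log2 change 0.47, adjusted p = 0.0354), and HDAC3 10.3 ± 0.126 and 7.55 ± 1.39 CPM (-0.38, adjusted p = 0.0118); both are histone deacetylases. In 5mC 1 rose and 3 fell. RCOR1, a corepressor that acts with the demethylase KDM1A, fell from 21.6 ± 1.24 to 13.9 ± 0.739 CPM (log2 change -0.64, adjusted p = 6.05e-07). HDAC3 passed as higher in 5mC (0.25, adjusted p = 0.0214), which became -0.055 with library totals alone.

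All 7 other genes of the interferon regulatory factor family were tested in 5hmC: none rose and 2 fell in edgeR, with 0 rises also at an unadjusted p under 0.05 and by DESeq2. The larger fall was in IRF1 (from 1.39 ± 0.133 to 0.876 ± 0.265 CPM, log2 change -0.75, adjusted p = 0.0217). In 5mC 3 were tested, of which 1 rose and 2 fell. IRF2, a repressor of interferon genes, had 92.7 ± 2.05 and 122 ± 3.996 CPM (log2 change 0.40, adjusted p = 1.18e-11). With library totals alone IRF2 did not pass (0.092).

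Among 21 granule and effector genes known as targets of these factors, 19 were tested in 5hmC: 6 rose and 3 fell, with a median of 0.16. FCGR1A, the high-affinity Fc receptor, rose by 0.64 (SE 0.172, adjusted p = 0.00725), and MPO, the myeloperoxidase of primary granules, fell by 0.84 (SE 0.132, adjusted p = 0.000239). In 5mC 10 were tested: 3 rose and 7 fell, with a median of -0.42. NCF4, a subunit of the NADPH oxidase, rose by 0.67 (adjusted p = 4.66e-07) and MPO fell by 0.65 (adjusted p = 0.000185).

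Of 12 cytokine and receptor genes, 11 were tested in 5hmC: 6 rose and none fell in edgeR, with a median of 0.18 (1 fell at an unadjusted p under 0.05, and 0 by DESeq2). CSF1, which encodes macrophage colony-stimulating factor, went from 13.9 ± 0.241 to 21.1 ± 1.31 CPM (log2 change 0.60, SE 0.0664, adjusted p = 3.1e-05). In 5mC 9 were tested: 5 rose and 1 fell. KIT, the stem cell factor receptor, rose by 0.70 (adjusted p = 0.00258), and EPOR, the erythropoietin receptor, fell by 0.62 (adjusted p = 4.45e-06).

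The direction of these counts moved with the scaling. With library totals alone, the 5hmC counts of higher and lower genes were 3 and 7 for network partners, 0 and 4 for GFI1 corepressors, 0 and 2 for the interferon regulatory factor family, 1 and 6 for granule and effector genes, and 2 and 2 for cytokine and receptor genes. In 5mC they were 3 and 8, 0 and 4, 0 and 2, 1 and 8, and 1 and 2. That scaling moved the median log2 change of all genes from 0.0064 to -0.19 in 5hmC and from 0.0024 to -0.31 in 5mC. Over all genes it called 1592 higher and 8559 lower in 5hmC, and 1404 and 6846 in 5mC. TRIB2 and HDAC2 in 5hmC and KIT in 5mC did not pass under it. Over all 5hmC regions it turned 88587 higher and 76317 lower calls into 46026 and 118325. Which scaling is nearer the true amounts was not tested, since no spike-in was analysed here.

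**Figure D4:**
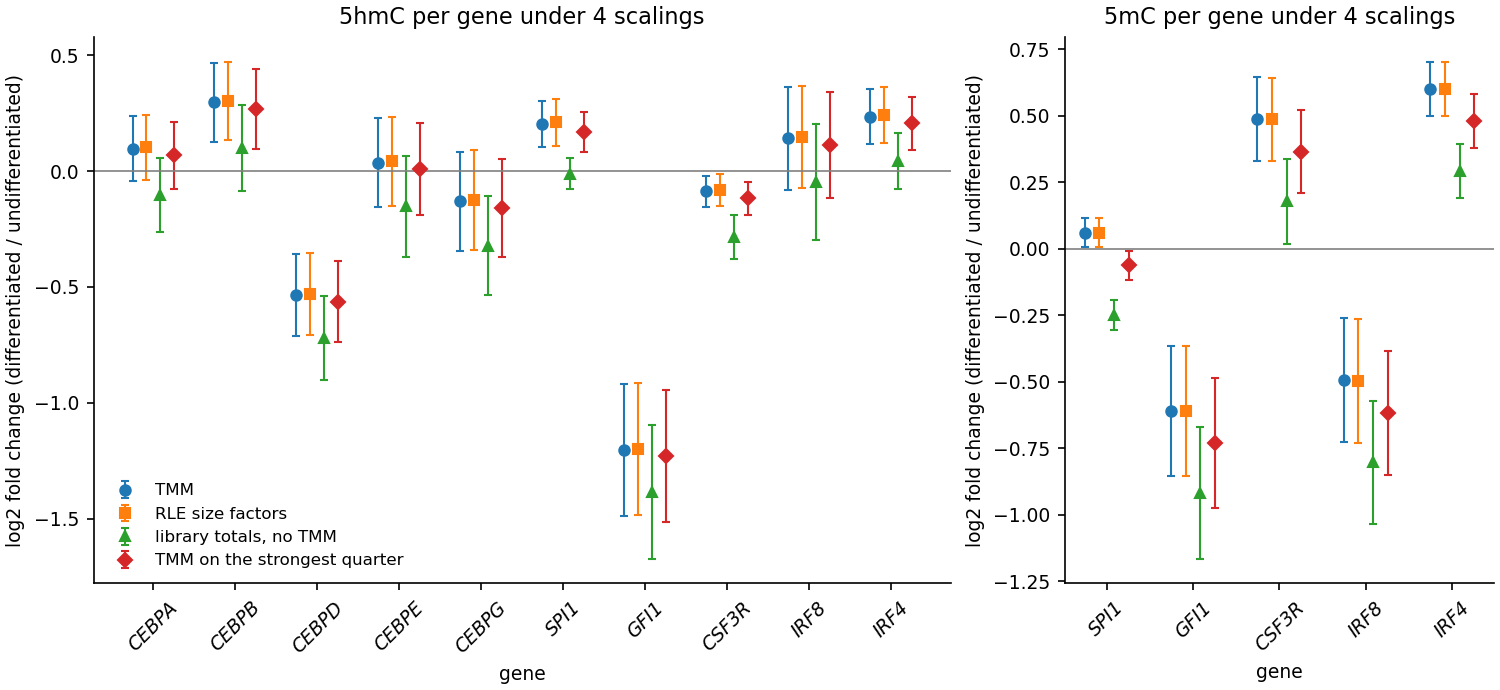
Log2 fold change per gene (differentiated over undifferentiated, error bars SE) in 5hmC (left) and 5mC (right) under 4 scalings: TMM, median-of-ratios factors (RLE), library totals alone, and TMM from the strongest regions or genes (above the 0.75 quantile). GFI1 and CEBPD stay below 0 in 5hmC and IRF4 above 0 in 5mC under all 4, while SPI1 changes sign in both marks.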

How the data were processed

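Antibody-captured DNA (MeDIP for 5mC, hMeDIP for 5hmC) was sequenced in 3 undifferentiated and 3 differentiated HL-60 replicates. Per the submitters' processing notes, the build was GRCh37 (hg19) and the tools were edgeR 2.11, SICER 1.1, BWA, bedtools 2.17.0 and SAMtools 0.1.18, with no roles; which libraries entered region calling was not given in the sources used. The authors deposited unnormalized read counts per region. They also deposited a log2 fold change, signed undifferentiated over differentiated as the counts show. Per the file headers, a p-value and an adjusted p-value stand beside each region in the deposited tables.

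The 5mC table is cut at an authors' p-value of 0.0165, so p-values of its regions were adjusted over 328588 implied tests and those of its genes over 12654 genes, without correction for the selection; its totals are not library depth. For 5hmC, 18 regions with a blank count were left out. In R 4.3.3, the counts of all regions or genes of a mark were fitted together with edgeR 4.0.16 (limma 3.58.1): filterByExpr, TMM, quasi-likelihood F test, Benjamini-Hochberg. The SE is the absolute log2 change divided by the square root of F. Counts per gene were summed over its regions, and library sizes were region totals. The steps were tested on simulated counts.

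The genes and lists were chosen with earlier results of these data known. All 10 genes are named. For up to 5 regions per gene and mark all are named, otherwise the region nearest the start, the one with most CPM per kb, and the largest called rise and fall; of each list, the largest called rise and fall. One gene that this rule would name is not reported here. Alternatives were library totals, RLE, TMM on the strongest regions (mean CPM above the 0.75 quantile), no filter, DESeq2 1.42.0, a replicate block, leaving out each library, a 2000-base promoter limit, and adjustment over listed regions only.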

Additional observations from a re-analysis of the deposited data

How the results depend on the processing

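The numbers of higher and lower regions depended on the scaling. The lowest count of a called 5hmC region in one library was 7 (CSF3R, 36944001), which limits its precision. The main counts of higher and lower were 4 and 5 (5hmC regions), 0 and 2 (5hmC genes), 4 and 1 (5mC regions) and 2 and 2 (5mC genes). With library totals alone they were 1 and 9, 0 and 3, 0 and 5, and 1 and 3. The features tested were 327901 5hmC regions, 20430 5hmC genes, 65534 5mC regions and 12654 5mC genes. Over all of these, library totals gave 46026 and 118325, 1592 and 8559, 2494 and 32689, and 1404 and 6846 higher and lower. With TMM on the strongest regions the regions gave 1 and 9 in 5hmC and 0 and 5 in 5mC. Over all regions that scaling gave 48333 and 121230 in 5hmC and 2039 and 32689 in 5mC. DESeq2 gave 2 and 3, 0 and 1, 0 and 0, and 2 and 0. Over all features it gave 43210 and 23252, 3856 and 3660, 1954 and 1454, and 4412 and 3736. The 2000-base promoter limit, which leaves fewer regions, gave 3 lower 5hmC regions, 0 lower 5hmC genes and 1 lower 5mC gene. The 5hmC regions of GFI1 and CEBPD begin 2568 and 2475 bases upstream, so neither gene was among the 6 tested in 5hmC under this limit. Over all genes it gave 4822 higher and 4963 lower in 5hmC, and 4854 and 5018 in 5mC. Adjustment over listed regions alone gave 5 lower 5mC regions. The list was cut at an authors' p-value of 0.0165, so passes under this setting were largely fixed in advance. It is 1 of the 13 alternatives counted for each 5mC region. Leaving out single libraries gave 2 to 5 higher and 3 to 6 lower 5hmC regions, 0 to 1 and 1 to 2 5hmC genes, 1 to 5 and 0 to 2 5mC regions, and 1 to 2 and 1 to 2 5mC genes. RLE factors and no filter moved none of these counts by more than 1.5 times. By DESeq2 the lists gave 6 higher and 4 lower network partners, 0 and 1 corepressors, 0 and 0 interferon regulatory factors, 2 and 2 granule genes and 2 and 0 cytokine genes in 5hmC, and 8 and 4, 0 and 2, 1 and 2, 2 and 2, and 3 and 1 in 5mC. The causes were not tested.

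Same-numbered libraries did not deviate together (r from -0.132 to -0.00022 in 5hmC and from -0.0105 to 0.0112 in 5mC), so the numbers were not taken to pair samples. With the replicate block, 1 5hmC gene was lower (the call of CEBPD was lost, -0.52, adjusted p = 0.0602) and 2 5mC regions were higher; the other counts stayed within 1.5 times.

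Signs turned with library totals alone in 5hmC at CEBPB 48801401 (-0.086), CEBPE (-0.15), IRF4 396401 (-0.018), IRF8 (-0.047), and SPI1 47399001 (-0.0066), 47387401 (-0.076) and 47377201 (-0.014), at the genes CEBPA (-0.10), CEBPE (-0.15), SPI1 (-0.012) and IRF8 (-0.046), and in 5mC at SPI1 47376801 (-0.013) and the gene SPI1 (-0.25). With TMM on the strongest regions they turned in 5hmC at CEBPB 48801401 (-0.084), CEBPE (-0.15), IRF4 396401 (-0.012), IRF8 (-0.047), SPI1 47399001 (-0.0045) and 47387401 (-0.063), and in 5mC at SPI1 47376801 (-0.034) and its gene (-0.062). The 2000-base limit turned CEBPG (0.30). Without single libraries, changes that turned ran from -0.084 to 0.18 (CEBPA gene), -0.056 to 0.15 (CEBPE gene), -0.34 to 0.037 (CEBPG gene), -0.18 to 0.083 (CEBPA 33797801), -0.034 to 0.18 (CEBPE region) and -0.13 to 0.078 (CSF3R 36949801). None of these passed in the main test apart from SPI1 47376801 in 5mC.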
